A study of Mus musculus with 2 samples.

Results

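Genes that mark epithelial stem cells of the incisor and of the hair follicle were followed in dental epithelial stem cells with and without Med1, a subunit of Mediator, the complex that couples transcription factors to RNA polymerase II. They are Sox2, Sox9, Bmi1, Lgr5, Lrig1, Cd34, Lhx2, Gli1, Abcg2 and Tbx1, 10 genes listed by symbol for their known roles, with earlier results of these data known, where 16593 genes were measured in all. The array's probe annotation held 9 of them through 10 probes, 2 for Sox2 and 1 for each of the others. Tbx1 was not analysed here.

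The cells came from the labial cervical loop of the lower incisor of C57/BL6 mice aged 3 months. Controls were Med1 fl/fl littermates, and knockouts were Med1 fl/fl with Cre driven by Krt14, so deletion was directed to all keratin 14-expressing epithelium and not to stem cells alone. Both groups carried the floxed allele, were plated sparsely so that single cells founded colonies, and were kept unpassaged for 7 days with EGF and FGF. Each genotype had 3 mice and 1 array, read here as a pool of the mice. No test between genotypes, standard deviation or p-value could therefore be given, the number of arrays limits the precision, and every value is a single measurement.

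The mouse incisor grows throughout life because progenitors in the cervical loop keep supplying enamel-forming ameloblasts. The hair follicle keeps a comparable reserve in its bulge and in zones above it. The genes that mark these reserves overlap: SOX transcription factors, a Polycomb protein, receptors that tune Wnt and EGF signals, and the Hedgehog effector Gli1 are used in both organs.

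A probe was detected where its p-value against the array's negative control beads was under 0.01. This held for 43.1% of 25697 probes in the control and 42.6% in the knockout. The lowest detected signals were 237 and 241 bead signal units, above mean backgrounds of 172 and 176. Med1 was lower on the knockout array by its brightest probe, 914 against 412 signal units, or 2.81-fold lower after normalization. A dimmer Med1 probe, detected on both arrays, differed by -0.28 on the log2 scale, and the sources used here do not place the probes against the excised exons. All 12 measured markers of basal epithelium were detected on both arrays. Among them were Krt14 (38349 and 36803 units), the epithelial cadherin Cdh1 and the basal regulator Trp63. Krt15 and Perp, a desmosomal protein (differences of 2.26 and 1.78), were at least 2-fold higher in the knockout, and Itga6 and Krt5 (-2.09 and -1.22) lower. Without background correction Perp fell under 2-fold (0.93), while Krt15 (2.21), Itga6 (-1.60) and Krt5 (-1.21) did not. The arrays also differed in sex-linked RNA: Xist read 168 units on the control and 3131 on the knockout array, while the Y-linked Eif2s3y read 2472 and 888. The sex make-up of the RNA and the position of the array on its chip cannot be told apart from genotype for any value below.

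Of the 9 measured markers, 5 were detected on at least 1 array, against 49.5% of all genes. Sox2, Sox9, Bmi1 and Lrig1 were detected on both arrays and Cd34 on the knockout array only. Lgr5, Lhx2, Gli1 and Abcg2 were not detected on either. Dental and hair markers stood on both sides of this division, which the plot of signals by probe shows.

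**Figure D1:**
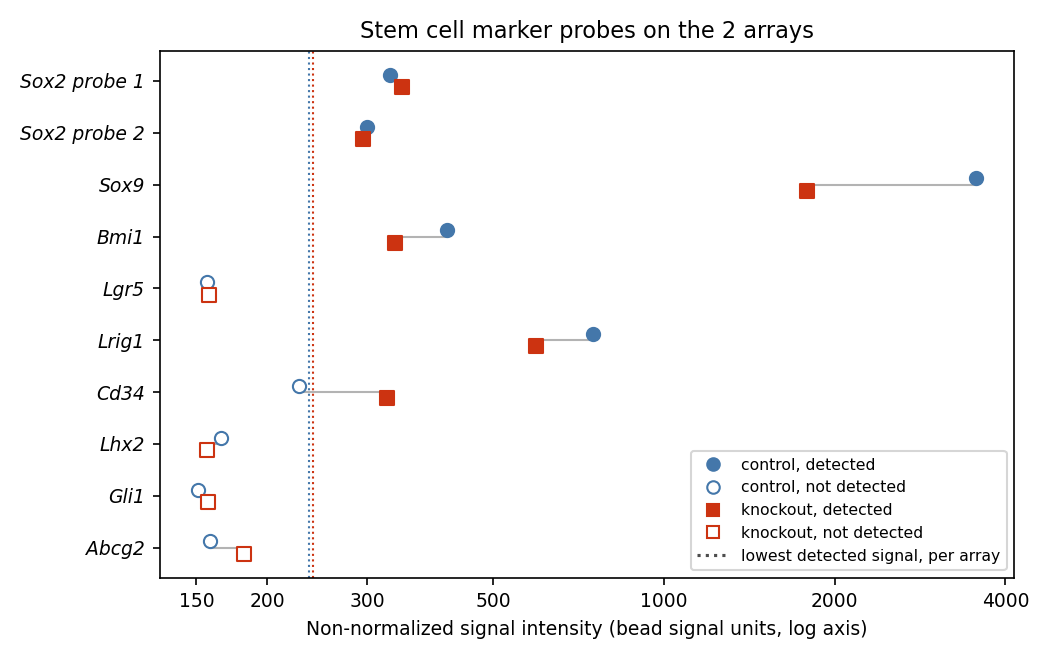
Non-normalized signal intensity (bead signal units, log axis) of each stem cell marker probe on the control array (blue circles) and the Med1 knockout array (red squares). Filled symbols are detected, open symbols are not, and the dotted lines are the lowest detected signal on each array (237 and 241). Sox9 drops from 3544 to 1790, Cd34 crosses the line from 228 to 326, and the probes of Lgr5, Lhx2, Gli1 and Abcg2 lie between 151 and 182 on both arrays.

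The start regions of the detected markers are shown to set out the promoters behind the genes described next, from RefSeq on build GRCm38.p6. The promoter table held 4 of the 5, without Sox9. Each line gives the 250 bases before the annotated start, 5′ to 3′ on the gene's strand. They are chr3:34649745-34649994 for Sox2 (plus strand), chr2:18676768-18677017 for Bmi1 (plus), chr6:94700146-94700395 for Lrig1 (minus) and chr1:194938571-194938820 for Cd34 (plus). Capitals mark matches on either strand to any motif searched.
Sox2: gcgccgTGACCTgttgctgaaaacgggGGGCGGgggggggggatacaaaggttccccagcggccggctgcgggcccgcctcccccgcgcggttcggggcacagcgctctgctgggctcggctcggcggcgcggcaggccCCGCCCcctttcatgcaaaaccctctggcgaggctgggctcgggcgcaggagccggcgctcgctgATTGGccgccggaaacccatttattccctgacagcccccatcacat
Bmi1: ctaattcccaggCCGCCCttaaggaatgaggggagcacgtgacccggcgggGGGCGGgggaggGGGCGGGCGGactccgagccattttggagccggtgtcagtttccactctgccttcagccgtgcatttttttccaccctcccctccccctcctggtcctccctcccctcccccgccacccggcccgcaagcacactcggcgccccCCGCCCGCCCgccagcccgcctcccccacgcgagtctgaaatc
Lrig1: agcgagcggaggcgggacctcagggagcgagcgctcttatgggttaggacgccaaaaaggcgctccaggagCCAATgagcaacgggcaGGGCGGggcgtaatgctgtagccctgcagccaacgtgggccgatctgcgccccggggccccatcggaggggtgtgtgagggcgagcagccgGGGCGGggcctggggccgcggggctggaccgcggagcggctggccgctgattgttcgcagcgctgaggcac
Cd34: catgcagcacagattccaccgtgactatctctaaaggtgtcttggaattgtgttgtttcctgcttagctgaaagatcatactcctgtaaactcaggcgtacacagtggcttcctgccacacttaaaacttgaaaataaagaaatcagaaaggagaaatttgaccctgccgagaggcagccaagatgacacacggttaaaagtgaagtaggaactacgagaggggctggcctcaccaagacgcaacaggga

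The motifs were the GC box GGGCGG, found in 32.7% of 32851 promoter windows of this length, the CCAAT box (33.9%), the TATA box TATAAA (12.4%) and the nuclear receptor half-site AGGTCA (14.0%). A GLI site, GACCACCCA (0.225%), and a SOX site, AACAATG (3.29%), were searched as well. Overlapping matches were each counted. The Bmi1 window held 6 GC boxes, and those of Sox2 and Lrig1 held 2 each. Sox2 and Lrig1 also held 1 CCAAT box each, and Sox2 1 nuclear receptor half-site. None of the 6 motifs was found in the Cd34 window. The Sox2, Bmi1 and Lrig1 windows were rich in CpG, with 27, 21 and 26 CpG dinucleotides against a median of 6 over all windows. Cd34 had 6, and its G and C content was 46.4% against 70.4% to 72.0% in the other 3. The 2 windows of Lhx2, which was not detected, held 25 and 24 CpG, so a window of this kind was not restricted to the detected markers.

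Among the transcription factors, Sox9, which specifies hair follicle stem cells and is also expressed in the cervical loop, was lower on the knockout array. Its probe read 3544 signal units in the control and 1790 in the knockout, both far above background. On the normalized log2 scale the levels were 11.72 and 10.69, a difference of -1.03 or 2.04-fold lower. In the background of 8217 detected genes, a difference of 2-fold or more was reached by 6.52% towards lower and by 8.35% towards higher values in the knockout. Sox9 was the only marker in the first set, and 6.18% of detected genes had a difference as low or lower. It sat at the edge of this rule of size: without background correction the difference was -0.96 and in the deposited normalized values -0.98. Sox9 was lower on the knockout array under each of the 10 processing alternatives that gave it a value, from -1.06 to -0.96. Those on detection and on the probe rule could not alter the value of its single probe.

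Sox2, the factor that marks the stem cells of the incisor and is required for their upkeep, read nearly alike on the 2 arrays. Its brighter probe gave 329 units on the control and 346 on the knockout array, and its other probe 300 and 295. The normalized differences were 0.22 and 0.01. Over 1830 genes for which both arrays detected several probes, the between-probe standard deviation of such a difference was 0.31, and it was 0.34 over the 270 of them with a mean level under 8, the range of Sox2. Both Sox2 values lie within this spread, which is that between probes on the same 2 arrays. It includes neither the spread between animals nor that between repeat arrays or labellings. Both probes were detected on both arrays with detection p-values of 0, and their signals stood 6.35 to 9.03 background standard deviations above the background mean.

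Lhx2, a LIM homeobox factor that maintains hair follicle stem cells, read 166 units on the control and 157 on the knockout array. Both readings were below the mean background of their array (detection p-values of 0.518 and 0.898). Gli1, the zinc finger effector and target of Hedgehog signalling, read 151 and 157 units, with detection p-values of 0.94 and 0.888. Neither gene was above background, and a transcript giving a signal under the lowest detected one, 237 or 241 units, would have been missed. No fold is given for genes dim on both arrays.

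Bmi1, a Polycomb protein that keeps the senescence locus Cdkn2a silent and sustains incisor stem cells, was slightly dimmer on the knockout array. It read 414 units on the control and 336 on the knockout array, levels of 7.95 and 7.52 on the normalized log2 scale. The difference of -0.43 exceeded the between-probe standard deviation but not 2-fold, and 43.0% of detected genes differed by as much in either direction. It shrank to -0.25 without background correction and to -0.24 in the deposited values. The between-probe standard deviation was computed for the main processing only. Cdkn2a itself was detected on both arrays, at 3024 units on the control and 3313 on the knockout array by its brightest probe. It differed by 0.17 by that probe and -0.06 by its other detected probe.

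Among the receptors and surface proteins, Lrig1 was also slightly dimmer. Lrig1 restrains EGF receptor signalling and marks stem cells of the upper hair follicle. It read 750 units on the control and 596 on the knockout array, levels of 9.17 and 8.81, a difference of -0.36. Differences of this size were common, since 50.2% of detected genes differed at least as far from 0. Lgr5, a receptor for R-spondins and a Wnt target in many epithelial stem cells, read 157 and 158 units (detection p-values of 0.837 and 0.88) and was not detected.

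Cd34, the sialomucin that marks bulge stem cells in the mouse and also endothelial cells and blood progenitors, was the only marker past 2-fold towards higher values. It read 228 units on the control array (detection p-value 0.0163) and 326 on the knockout array (detection p-value 0). The non-normalized signal was thus 1.43 times the control's. After background correction the levels were 6.13 and 7.43, a difference of 1.30, or at least 2.18-fold higher when the control is set at the lowest detected level. Cd34 entered the detected set only through the array on which it is bright, and requiring detection on both arrays removes it. The size rests on the background step: the difference was 0.54 without it, 0.52 in the deposited values, and 0.81 with normexp on the signal alone. The difference stayed above 0 in all 9 processing alternatives that gave it a value, although those on detection and on the probe rule could not alter it.

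Markers of other cell types were read beside Cd34. Of 16 mesenchymal markers measured, 9 were detected, 3 on both arrays, 6 on the knockout array only and 0 on the control array only. A gene detected in the knockout only could hardly read other than higher there, and a gene detected in the control only other than lower in the knockout. By the 2-fold rule 8 were higher in the knockout (6 with lower bounds) and 0 lower. Here and below, a lower bound is that of the size of a difference and carries its sign. It holds within the main background correction, and without that correction a difference can be smaller than the bound. The median difference of the 9 detected was 2.93, or 1.80 with lower bounds and 1.22 without background correction. The summed signal of all 16 measured, which includes background, was 4194 units on the control and 10402 on the knockout array. With background correction Thy1 was at least 15.7-fold higher. Col1a1, a fibrillar collagen chain, and Lum, a matrix proteoglycan, had lower bounds of 3.14 and 2.84 on the log2 scale. Without it, the log2 differences of Thy1, Col1a1 and Lum were 2.89, 2.14 and 1.90. Pdgfra, Pdgfrb, Prrx1 and Col1a2 were not detected on either array. Of 11 endothelial markers 2 were detected, Flt1, on the knockout array only (lower bound 0.87), and Egfl7 (0.80, with other detected probes at -0.02 and 0.81). The summed signal of all 11, which includes background, was 2483 units on the control and 2954 on the knockout array. The defining genes Pecam1, Cdh5, Kdr, Tek and Vwf were not detected. The part of either cell type in the Cd34 reading was not tested. In RNA of a whole culture, a change in the share of cells and a change in RNA per cell cannot be told apart.

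Abcg2, the efflux pump behind the dye-excluding side population of stem cells, read 159 units on the control and 182 on the knockout array. Its detection p-values were 0.773 and 0.269, so the reading was not above background on either array.

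**Figure D2:**
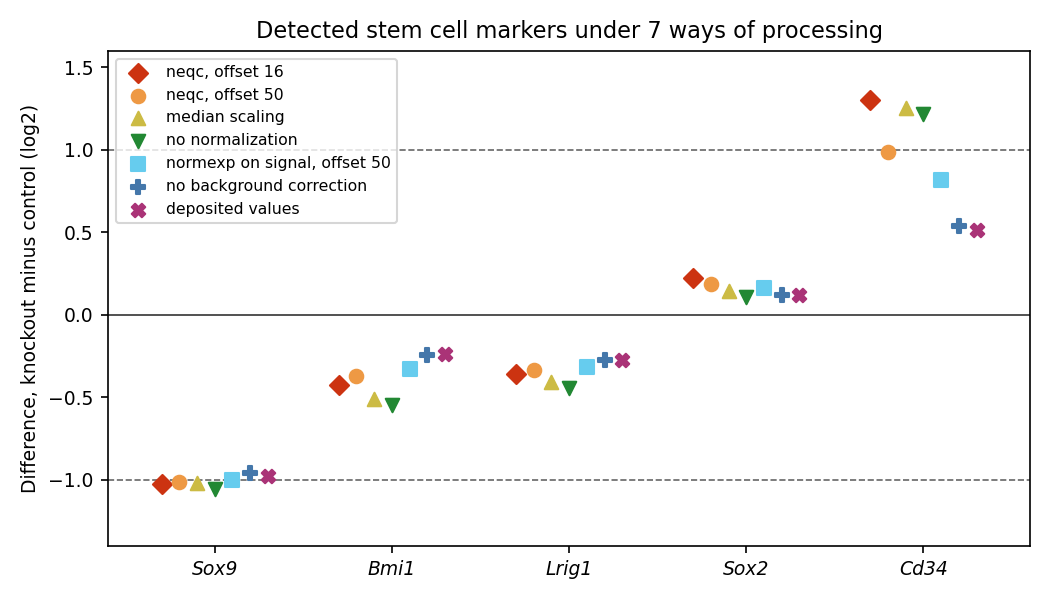
Difference between the knockout and control array (log2, vertical axis) for each detected stem cell marker under 7 ways of processing, 1 symbol each. Dashed lines are 2-fold. Sox9 lies on the lower line under all 7 (-1.06 to -0.96), Cd34 spreads from 0.52 to 1.30, and Bmi1, Lrig1 and Sox2 stay between the lines.

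Across the 5 detected markers the differences ran from -1.03 to 1.30 (1.13 with the lower bound of Cd34), with a median of -0.36 and a mean of -0.06. Of these, 3 were below 0, and 1 marker passed 2-fold in each direction. Over all detected genes the median was -0.06. The markers thus did not share a direction, and no test bears on so few genes from 2 arrays. By distance between the pairs of normalized levels over the 2 arrays, the genes nearest to Sox9 were Trmt1l and Galnt1, and those nearest to Sox2 were E2f2 and Dot1l. Cald1 and Cdc73 lay nearest to Bmi1, and Plekhg3 and Zmym5 nearest to Lrig1, all within 0.11 log2 units. A probe's level also depends on how well it binds its target, so this likeness over 2 arrays describes readings only.

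The genes that work with the markers were then described by lists. Of 37 measured genes of the cervical loop, 26 were detected. By the 2-fold rule 5 were higher (3 with lower bounds), 5 were lower (4 with lower bounds) and 16 neither, and the median was 0.13. Igfbp5, a binding protein for insulin-like growth factors, differed by 2.72, and Bmp4, a bone morphogenetic protein, differed by 1.44. The homeobox genes Msx1 and Msx2 were detected on the knockout array only, with lower bounds of 0.83 and 1.42. In the other direction Fgfr1, a receptor for FGF, was detected on the control array only (lower bound -0.93). So was Edar, the ectodysplasin receptor (-1.38). Etv5, an FGF target, differed by -1.28, Krt5 by -1.22 and Runx1 by -1.06. Without background correction 2 of these genes stayed at least 2-fold higher and 1 lower. The cervical loop factors Isl1 (0.16), Pitx1 (0.10) and Yap1 (0.07) were close to 0.

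Of 28 measured genes of hair follicle stem cells, 22 were detected. By the 2-fold rule 4 were higher (2 with lower bounds), 7 were lower (6 with lower bounds) and 11 neither, and the median was -0.23. Without background correction the rule counted 2 higher and 3 lower. Krt19 and Krt15, keratins of the bulge, differed by 3.20 and 2.26. Cd200, a surface protein of bulge cells, was detected on the control array only, with a lower bound of -2.24 and a second detected probe at -2.26. The integrin subunit Itga6 differed by -2.09, and the matrix protein tenascin C (Tnc) by -1.08, with 4 further probes from -1.76 to -1.09. Among genes detected on both arrays, the bulge keratins were thus higher on the array where Itga6 and Sox9 were lower. Cd34 was detected on the knockout array only and Cd200, by its brightest probe, on the control array only, which nearly fixed their directions. Nfatc1, which holds bulge cells quiescent, differed by less than 0.01 in size by its brightest probe and by 0.18 by its other detected probe. Tcf7l1, a Wnt effector of the bulge, differed by 0.29. Runx1 stands in both lists.

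Beside Gli1, 7 of the 15 measured genes of the Hedgehog pathway were detected, a share near the 49.5% of all genes. The 8 not detected included the ligand Shh, the receptor Ptch1 and the decoy Hhip. Ptch1 and Hhip are, like Gli1, targets of the pathway. None of the 7 differed by 2-fold, with a median of -0.31 (-0.23 with lower bounds). Stk36, a kinase, was nearest at -0.999, Hhat, which adds a lipid to the ligand, was at -0.78 (other detected probes at -0.46 and -0.08), and Sufu, which restrains Gli proteins, was seen on the knockout array only (lower bound 0.13). The signal transducer Smo differed by -0.23.

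Beside Bmi1, 18 of 23 other Polycomb genes and targets were detected, and their median was -0.18. Of these, 17 stayed under 2-fold, 0 were lower and 1 was higher, Pcgf5, a relative of Bmi1 in other Polycomb complexes (1.17, and 0.96 without background correction). Next were Pcgf2, the closest relative of Bmi1, seen on the knockout array only (lower bound 0.33), and Cbx2, a chromodomain subunit (-0.91). The catalytic subunit Ezh2 differed by -0.61, and Ring1 (0.06) and Suz12 (-0.16) were near 0.

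Beside Lgr5, 11 of 16 genes of the R-spondin and Lgr system and of Wnt feedback were not detected, among them all 4 R-spondins. Of the 5 detected, Nkd2, an inhibitor of Wnt signalling, differed by -3.48, Tnfrsf19, a Wnt-induced receptor, was seen on the knockout array only (lower bound 1.37), and the co-receptor Lrp5 and Axin2, a general Wnt target, each differed by -0.17. Of 14 other SOX genes, 6 were detected. Sox21, a relative of Sox2, was seen on the knockout array only (lower bound 1.48), while Sox7 (-0.96), Sox15 (0.79) and Sox13 (-0.58) stayed under 2-fold.

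Beside Lrig1, all 4 detected genes of the Lrig and ErbB list stayed under 2-fold. Lrig3 differed by -0.07 and Egfr by -0.01 by its brightest probe, with 3 other detected Egfr probes from 0.37 to 0.70. Errfi1, a feedback inhibitor of the EGF receptor, differed by 0.93 and Met by -0.13. Beside Lhx2, 13 of 18 LIM homeobox genes and cofactors were not detected, and the 5 that were ranged from -0.38 (Ldb1, the cofactor of LIM proteins) to 0.73 (Ssbp2). Lmo4, a LIM-only protein, differed by 0.34.

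In the family of Tbx1, only Tbx3 of 12 measured T-box genes was detected, and it differed by -2.22, with a second detected probe at -1.66. In the family of Abcg2, 9 of 18 measured ABC transporters were detected, of which 0 passed 2-fold towards higher and 1 towards lower. That was Abcg1, a sterol exporter detected on the control array only (lower bound -1.44). Abcc3 (-0.93) and Abcc5 (-0.73) followed. Podxl, podocalyxin, the relative of Cd34, was detected on the control array only (lower bound -0.81), so it could hardly read other than lower in the knockout. Emcn was not detected.

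**Figure D3:**
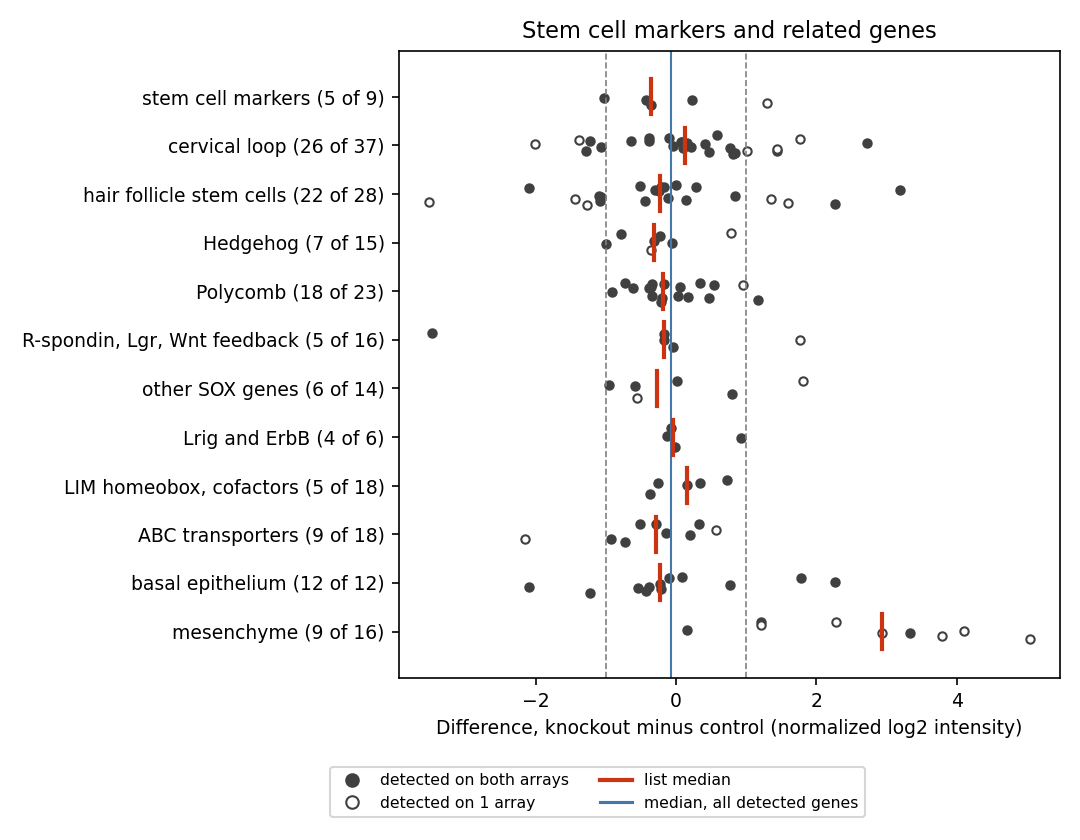
Difference between the knockout and control array (normalized log2 intensity) of each detected gene, by list, with detected of measured genes in brackets. Filled points are detected on both arrays, open points on 1, red bars are list medians, the blue line is the median of all detected genes (-0.06) and dashed lines are 2-fold. The stem cell markers range from -1.03 to 1.30, and the mesenchymal markers lie at or above 0.16.

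The remaining cell type markers, among them those of ameloblasts, which the cervical loop epithelium itself supplies, gave few readings. Of 9 leukocyte markers measured 3 were detected, Coro1a (lower bound 0.57), H2-Ab1 (lower bound -1.20) and Cd14 (-0.74), while Ptprc was not. Of 7 Schwann cell and melanocyte markers, Mbp (2.04, with another detected probe at 1.27) and Ngfr (0.91) were detected. Hba-a1, the only erythroid marker seen, had a lower bound of 0.41, and Ambn, the only ameloblast marker seen, one of 3.00. Their part in the marker readings was not tested.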

How the data were processed

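RNA of cultured dental epithelial cells was hybridised to Illumina bead arrays, 1 per genotype. The main table, as deposited, gives per probe (25697 in all) a mean signal intensity, not normalized between arrays, and a detection p-value, per the file headers. The submitters' processing notes name GenomeStudio 2011.1. A second deposited table gives intensity values of nearly 1 shared distribution, by a method not given in the sources used here.

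Background was corrected with normexp, with mean and spread taken from the detection p-values and an offset of 16, followed by quantile normalization of log2 values (neqc, limma 3.58.1, R 4.3.3). Differences are knockout minus control. A gene was detected at a detection p-value under 0.01 on at least 1 array and represented by its brightest probe. For genes detected on 1 array the dim side was set to the lowest detected value (6.30 or 6.37) or its own, whichever was higher. This gave lower bounds that hold within this background correction only. Of the probes, 23978 had 1 gene symbol, and 23962 of these had a gene identifier that matched the mouse gene table. The other 1719 were unnamed here, a count that would include any probe with several symbols. The procedure was tested on simulated data, with known changes given only to probes well above background. Cd34, Sox2 and Bmi1 were dimmer than those probes, so the test does not cover their levels.

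The markers and lists were chosen with earlier results of these data known. Named from each list are the 3 detected genes with the largest absolute difference and all 2-fold different genes where 6 or fewer. Further genes were picked with their values in view. Alternatives covered background correction, offset, normalization, the deposited values, detection, the probe rule and the fold threshold.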

Additional observations from a re-analysis of the deposited data

How the results depend on the processing

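Sox9, Bmi1, Lrig1 and Sox2 kept their direction in all 10 alternatives that gave them a value, and Cd34 in its 9. Those on detection could not alter a gene's value, nor could the probe rule for a gene with 1 probe, so they repeated the main value. The direction of Sox2 is that of its brighter probe or of the probe mean, while its other probe differed by 0.01. Bmi1 ran from -0.55 to -0.24, Lrig1 from -0.44 to -0.27 and Sox2 from 0.10 to 0.22. The counts at 2-fold did not hold. The number of markers at least 2-fold higher was 0 instead of 1 without background correction, with normexp on the signal alone, with an offset of 50, in the deposited values, when detection on both arrays was required and at 3-fold. The number at least 2-fold lower was 0 instead of 1 without background correction, with normexp on the signal alone, in the deposited values and at 3-fold. Without a detection filter all 9 measured markers counted and their median was -0.011, since the 4 dim markers entered. Over all genes, 686 were higher and 536 lower. These counts became 341 and 207 without background correction, 344 and 211 in the deposited values, 402 and 299 with detection on both arrays, 1203 and 1345 at 1.5-fold, and 365 and 204 at 3-fold. Normexp on the signal alone left 325 lower. Lower bounds in place of differences, added after the data were seen, left the markers' counts and median unchanged. The mean of the measured differences of the 5 detected markers was -0.06, against their median of -0.36. No paired analysis was possible because each genotype has 1 array. The limits include the single array per genotype and, for the 4 undetected markers, signal at background. Sex make-up of the RNA and chip position also cannot be told apart from genotype. Of the detected markers, only Sox2 had more than 1 probe.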
